A study of Mus musculus with 31 samples.

Results

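A set of 10 genes of the mTOR and MNK kinase pathways was followed in ribosome-bound RNA from mouse sensory neurons and their axons. Mtor, Rptor, Rictor, Tsc1, Tsc2, Rheb, Mknk1, Mknk2, Rps6kb1 and Akt1 were taken by symbol from the 55536 genes of the count tables, and all 10 genes were found. The RNA was isolated by translating ribosome affinity purification (TRAP), in which ribosomes carrying a GFP-tagged ribosomal protein L10a are pulled down and their RNA is sequenced. In Nav1.8-Cre;L10a-eGFP-fl/fl mice the tagged protein is made in cells with a history of Nav1.8 expression, mainly nociceptors. L10a-eGFP-fl/fl mice carry no Cre and served as controls for RNA recovered without a tag, so both genotypes share the floxed L10a-eGFP alleles. Central axon libraries came from lumbar dorsal root with spinal cord, peripheral axon libraries from sciatic nerve, and soma libraries from lumbar dorsal root ganglia. Batch 1 held central axons with somas and batch 2 held peripheral axons with other somas. Each of the 8 groups had 4 biological replicates, except the peripheral axon controls with 3, which made 31 libraries. The age of the mice and any pooling of animals are not given in the sources used here.

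mTOR is a kinase that works in a pair of complexes, mTORC1 with the subunit raptor (Rptor) and mTORC2 with the subunit rictor (Rictor). AKT1 (Akt1), activated by growth factors, inhibits the TSC1 and TSC2 complex, which otherwise holds the small GTPase RHEB inactive, and RHEB switches mTORC1 on. mTORC1 then phosphorylates the S6 kinase (Rps6kb1) and the 4E-BP proteins, while the MNK kinases (Mknk1 and Mknk2), activated by ERK and p38, phosphorylate the cap-binding protein eIF4E. In nociceptors both branches are known for setting protein synthesis in axons and for pain sensitisation.

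The libraries held 3.60 to 19.6 M counts each (M, mega), so that 3 counts, taken as the smallest detectable amount, stood for 0.153 to 0.833 CPM (counts per M, relative to the total count of the library). These limits cover counting error only. The Cre libraries contained the markers that define nociceptors. The summed level of 10 nociceptor markers was 7434 to 11680 CPM in batch 1 Cre somas, 7559 to 9396 CPM in batch 2 Cre somas, 1802 to 8804 CPM in central axon Cre libraries and 1097 to 4530 CPM in peripheral axon Cre libraries. The controls were not free of neuronal RNA, with 458 to 1349 CPM in central axon controls, 523 to 3611 CPM in peripheral axon controls, 4046 to 11620 CPM in batch 1 soma controls and 4612 to 8220 CPM in batch 2 soma controls. Other than in central axons, the ranges of Cre and control libraries overlapped. In these bulk samples fewer cells of a type and less RNA per cell cannot be told apart. The p-values measure the spread between libraries of a group.

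Every one of the 10 genes was detected in every Cre library: 0 of 160 values in the 16 Cre libraries were at or under 3 counts. In the 15 control libraries 22 of 150 values were at or under 3 counts, and 15 of these were exactly 0. The batch 1 soma controls held 14 of the 22. All genes counted in any library behaved in the same order, with 51.9% of values at or under 3 counts in Cre libraries and 65.3% in controls. The scatter between libraries was also largest in the batch 1 soma controls, where the median coefficient of variation over the 10 genes was 177%, against 28.0% in the batch 1 Cre somas. In the other groups it was 32.0% (central axon Cre), 50.7% (central axon control), 38.9% (peripheral axon Cre), 39.6% (peripheral axon control), 22.9% (batch 2 soma Cre) and 58.3% (batch 2 soma control). Each comparison with the batch 1 soma controls therefore has wide errors.

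**Figure D1:**
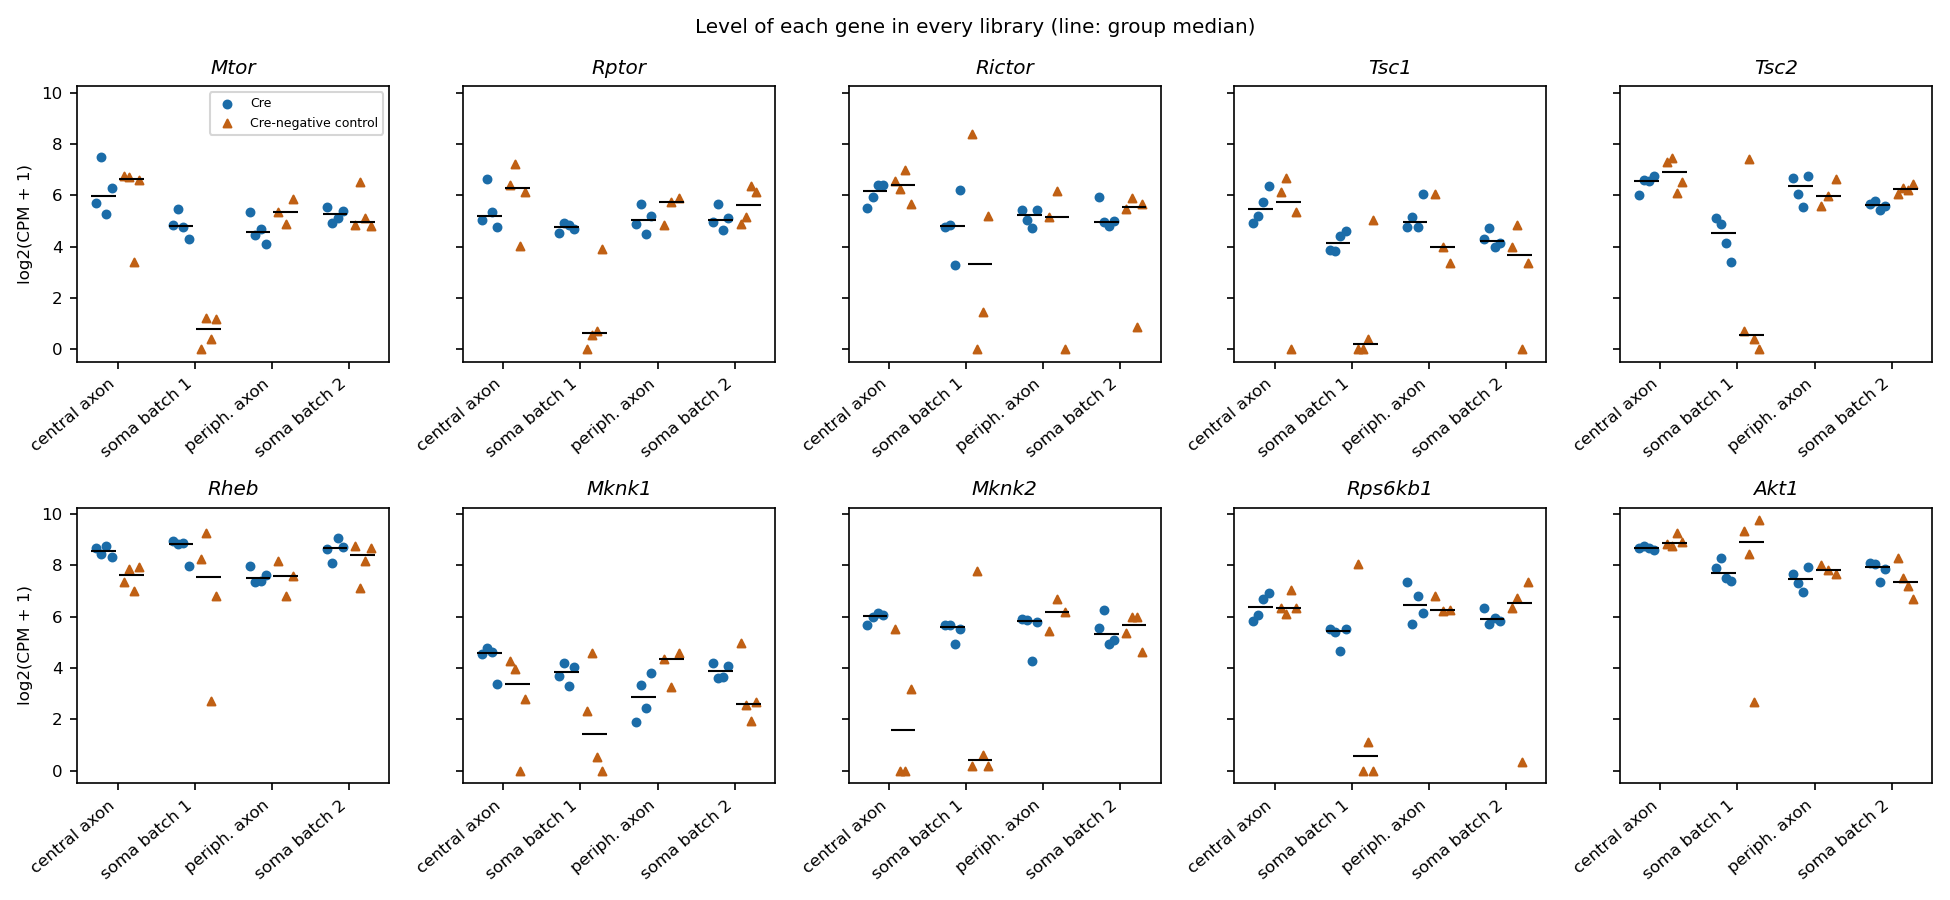
Level of each of the 10 genes in every library on a log2(CPM + 1) axis, with Cre libraries as circles, Cre-negative controls as triangles and a line at the group median. The 4 batch 1 soma controls scatter from 0 or near 0 to 337 CPM for Rictor and to 266 CPM for Rps6kb1, and the Cre libraries of a group spread less for most genes, with exceptions such as Rictor in batch 1 somas (8.63 to 72.3 CPM) and Mtor in central axons (37.6 to 178 CPM).

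To compare genes with each other, levels were divided by exon length (CPM per kb). Akt1 and Rheb were the most abundant of the 10 in every Cre group, and Mknk2 ranked behind them each time. In central axons the medians were 99.6 CPM per kb for Akt1, 48.8 for Rheb and 16.5 for Mknk2. Tsc2 (9.74 CPM per kb), Rps6kb1 (9.69), Mtor (6.25) and Mknk1 (5.07) formed a middle group. Rictor (4.23), Tsc1 (3.69) and Rptor (2.63) were lowest by median, although their libraries overlapped those of Mtor. In peripheral axons the order was Akt1 (43.8 CPM per kb), Rheb (23.7), Mknk2 (14.4), Rps6kb1 (10.4), Tsc2 (8.65), Tsc1 (2.58), Rptor (2.38), Mtor (2.23), Rictor (2.19) and Mknk1 (1.498). The 5 lowest of these overlapped each other. In batch 1 somas Rheb (59.8 CPM per kb) ranked above Akt1 (50.7), and in batch 2 somas Akt1 (60.6) ranked above Rheb (53.5), with overlapping libraries in both. The MNK pair was unequal throughout: Mknk2 was at 12.3 and 10.3 CPM per kb in the batch 1 and batch 2 somas, and Mknk1 at 3.03 and 3.06.

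**Figure D2:**
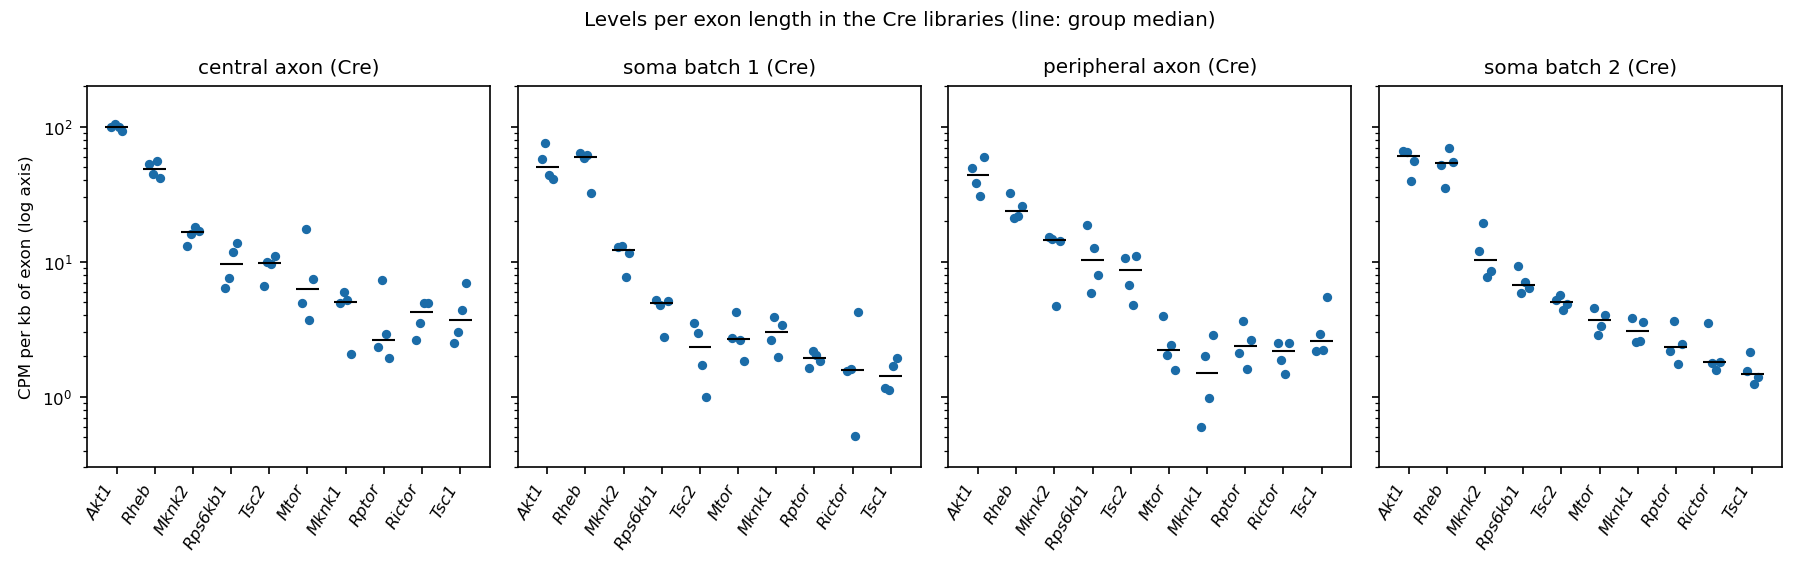
Level per kb of exon (log axis) of the 10 genes in each library of the 4 Cre groups, with a line at the group median and the genes in one fixed order. Akt1, Rheb and Mknk2 are the 3 highest by median in every panel, and the points of the lower 5 or 6 genes overlap.

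The main question for these genes was which of them were higher or lower in axons than in somas of the same batch. In central axons Tsc2 rose, and 9 of the 10 genes had a positive difference. In peripheral axons Rheb fell, and 7 of the 10 had a negative one. With edgeR's quasi-likelihood test, 1 of 10 genes passed an adjusted p of 0.05 in central axons, where 13.7% of all 14480 genes tested did. In peripheral axons 1 of 10 passed, where 31.2% of 15467 genes did. Among the 10 genes the share called was therefore no higher than among all genes in either comparison. The median log2 difference over the 10 was 0.54 in central axons (0.05 over all genes) and -0.22 in peripheral axons (-0.03 over all genes).

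The TSC genes encode the brake on RHEB. Tsc2 (chromosome 17, 24595816 to 24632630, minus strand, GRCm38) encodes tuberin, the subunit with GTPase-activating activity. In the central axon Cre libraries 1 to 4 it was at 63.1, 95.2, 92.2 and 105 CPM (mean 89.0 ± 18.1, SD, n = 4). In the batch 1 Cre somas it was at 34.0, 28.7, 16.5 and 9.53 CPM (22.2 ± 11.2, n = 4). All central axon libraries lay above all somas. The log2 difference was 1.53 (SE 0.39, 2.89-fold; edgeR adjusted p = 0.0225). The call was lost when central axon library 2, 3 or 4 or batch 1 soma library 3 was left out, with edgeR adjusted p-values up to 0.0886 and log2 differences of 1.25 to 1.83 over the 8 omissions. It was also lost when the controls of batch 1 were fitted together with these groups (log2 difference 1.88, edgeR adjusted p = 0.9999). That fit includes the batch 1 soma controls, whose median coefficient of variation was 177%. Over all genes, the alternatives called as few as 15 in this comparison, against 1990 with only the groups compared.

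In the peripheral axon Cre libraries Tsc2 was at 102, 64.8, 45.6 and 106 CPM, and in the batch 2 Cre somas at 50.1, 54.2, 41.9 and 47.1 CPM. These groups overlapped, and the log2 difference of 0.49 (SE 0.27) had an edgeR adjusted p of 0.189. The somas themselves were not alike: the 4 batch 2 Cre somas all lay above the 4 batch 1 Cre somas for Tsc2, a difference between batches that was not tested. Central axon controls held as much Tsc2 as the Cre libraries, at 156, 176, 66.6 and 90.2 CPM.

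Tsc2 has a neighbour that bears on its counts. Its exons overlap those of Pkd1 on the opposite strand over 7.2% of their length, and how the counting treated strand is not given in the sources used here. Pkd1, which encodes polycystin-1, was also higher in central axons than in batch 1 somas (33.7 to 99.8 against 0 to 11.9 CPM; log2 difference 3.47, SE 0.85; edgeR adjusted p = 0.0185). It was likewise higher in peripheral axons than in batch 2 somas (log2 difference 1.94, SE 0.43; edgeR adjusted p = 0.00564). The part of reads from Pkd1 in the Tsc2 counts was not tested.

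Tsc1 (chromosome 2, 28641228 to 28691167, plus strand) encodes hamartin, the partner that stabilises tuberin. It was at 29.5, 35.5, 51.8 and 81.8 CPM in central axons and at 13.7, 13.3, 20.02 and 23.0 CPM in batch 1 Cre somas, with no overlap. Its log2 difference of 1.03 (SE 0.38) missed the threshold (edgeR adjusted p = 0.0897). In peripheral axons it was at 25.8, 34.6, 26.4 and 64.7 CPM, again above every batch 2 soma (14.7 to 25.2 CPM), with a log2 difference of 0.81 (SE 0.37; edgeR adjusted p = 0.119). Tsc1 was the gene of the 10 whose Cre axon and soma libraries did not overlap, in the same direction, in both batches.

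Rheb (chromosome 5, 24802823 to 24842624, minus strand), the GTPase that activates mTORC1, went the other way. It was at 251, 163, 168 and 198 CPM in the peripheral axon Cre libraries (195 ± 40.3, n = 4) and at 402, 273, 539 and 424 CPM in the batch 2 Cre somas (409 ± 109, n = 4). All axon libraries lay below all somas. The log2 difference was -1.30 (SE 0.28, 2.47-fold lower; edgeR adjusted p = 0.00543). Rheb passed the threshold in each of the 13 alternative fits, with log2 differences of -1.50 to -1.07. In central axons it was at 408, 346, 427 and 321 CPM and in batch 1 Cre somas at 491, 450, 473 and 251 CPM, overlapping groups with a log2 difference of -0.60 (SE 0.33; edgeR adjusted p = 0.253). The lowest of these somas, library 4, stood apart from its group.

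Akt1 (chromosome 12, 112653821 to 112674884, minus strand), the kinase upstream of the TSC complex, was the most even gene in central axons, at 409, 429, 408 and 383 CPM (407 ± 18.8, n = 4). Batch 1 Cre somas held 235, 310, 180 and 168 CPM (224 ± 64.8, n = 4), below every axon library. After scaling between libraries its log2 difference was 0.43 (SE 0.29; edgeR adjusted p = 0.353), so the separation in CPM did not become a call. In peripheral axons Akt1 was at 202, 157, 125 and 246 CPM and in batch 2 Cre somas at 270, 266, 163 and 230 CPM (log2 difference -0.55, SE 0.25; edgeR adjusted p = 0.117). These groups overlapped.

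Mtor (chromosome 4, 148448611 to 148557683, plus strand) encodes the kinase itself. In central axons it was at 50.4, 178, 37.6 and 75.9 CPM (85.4 ± 63.6, n = 4), and library 2 was more than 2 times the next. Batch 1 Cre somas held 27.6, 43.1, 26.4 and 18.7 CPM. The log2 difference of 1.11 (SE 0.46) missed the threshold (edgeR adjusted p = 0.125). In peripheral axons Mtor was at 39.9, 20.7, 24.4 and 15.95 CPM and in batch 2 Cre somas at 45.6, 29.0, 33.9 and 41.0 CPM. There the difference was negative (-0.78, SE 0.33; edgeR adjusted p = 0.0972), and the groups overlapped through peripheral axon library 1.

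Rptor (chromosome 11, 119602905 to 119899576, plus strand), which presents substrates to mTORC1, differed little by compartment. Its Cre libraries held 26.2 to 98.6 CPM in central axons, 22.1 to 29.5 CPM in batch 1 somas, 21.7 to 49.3 CPM in peripheral axons and 23.7 to 49.1 CPM in batch 2 somas. The log2 differences between axon and soma were 0.47 (SE 0.42) and -0.19 (SE 0.35), with edgeR adjusted p-values of 0.494 and 0.702. Rictor (chromosome 15, 6708379 to 6800401, plus strand), the mTORC2 subunit, was at 44.3 to 84.4 CPM in central axons against 8.63 to 72.3 CPM in batch 1 somas. In peripheral axons it was at 25.1 to 42.1 CPM against 26.5 to 59.3 CPM in batch 2 somas. Its log2 differences of 0.61 (SE 0.47) and -0.25 (SE 0.31) had edgeR adjusted p-values of 0.426 and 0.572. For both complex-defining subunits the axon and soma groups overlapped in each batch.

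Rps6kb1 (chromosome 11, 86498871 to 86544805, minus strand), the S6 kinase downstream of mTORC1, was at 55.3, 65.6, 102 and 119 CPM in central axons and 44.9, 41.7, 24.2 and 44.3 CPM in batch 1 Cre somas. The groups did not overlap, but the log2 difference of 0.69 (SE 0.32) had an edgeR adjusted p of 0.169. In peripheral axons the range was 51.1 to 163 CPM against 51.2 to 79.9 CPM in batch 2 somas (0.45, SE 0.33; edgeR adjusted p = 0.33). Rps6kb1 was positive in both axons, as were Tsc1 and Tsc2. Its exons overlap those of Rnft1 on the opposite strand over 1.79% of their length. Rnft1 was higher in peripheral axons (9.70 to 56.9 CPM) than in batch 2 somas (2.39 to 3.18 CPM). Its log2 difference was 3.22 (SE 0.54; edgeR adjusted p = 0.00119). The part of Rnft1 reads in the Rps6kb1 counts was not tested.

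The MNK kinases did not separate axon from soma by the test. Mknk1 (chromosome 4, 115839198 to 115879250, plus strand) was at 22.2, 26.6, 23.5 and 9.38 CPM in central axons and 11.9, 17.4, 8.80 and 15.4 CPM in batch 1 Cre somas (log2 difference 0.21, SE 0.46; edgeR adjusted p = 0.799). In peripheral axons it was at 2.68, 9.10, 4.39 and 12.8 CPM, with 3 of 4 libraries below every batch 2 Cre soma (11.4 to 17.2 CPM). The difference there was -1.13 (SE 0.55; edgeR adjusted p = 0.143). Mknk2 (chromosome 10, 80665327 to 80678112, minus strand) was at 50.6, 62.2, 70.6 and 66.1 CPM in central axons and 50.1, 50.6, 30.0 and 45.4 CPM in batch 1 Cre somas. The CPM just failed to overlap, yet the scaled log2 difference was 0.06 (SE 0.28; edgeR adjusted p = 0.911). In peripheral axons Mknk2 was at 59.1, 57.4, 18.3 and 55.0 CPM against 29.8 to 74.9 CPM in batch 2 somas (-0.17, SE 0.39; edgeR adjusted p = 0.756).

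**Figure D3:**
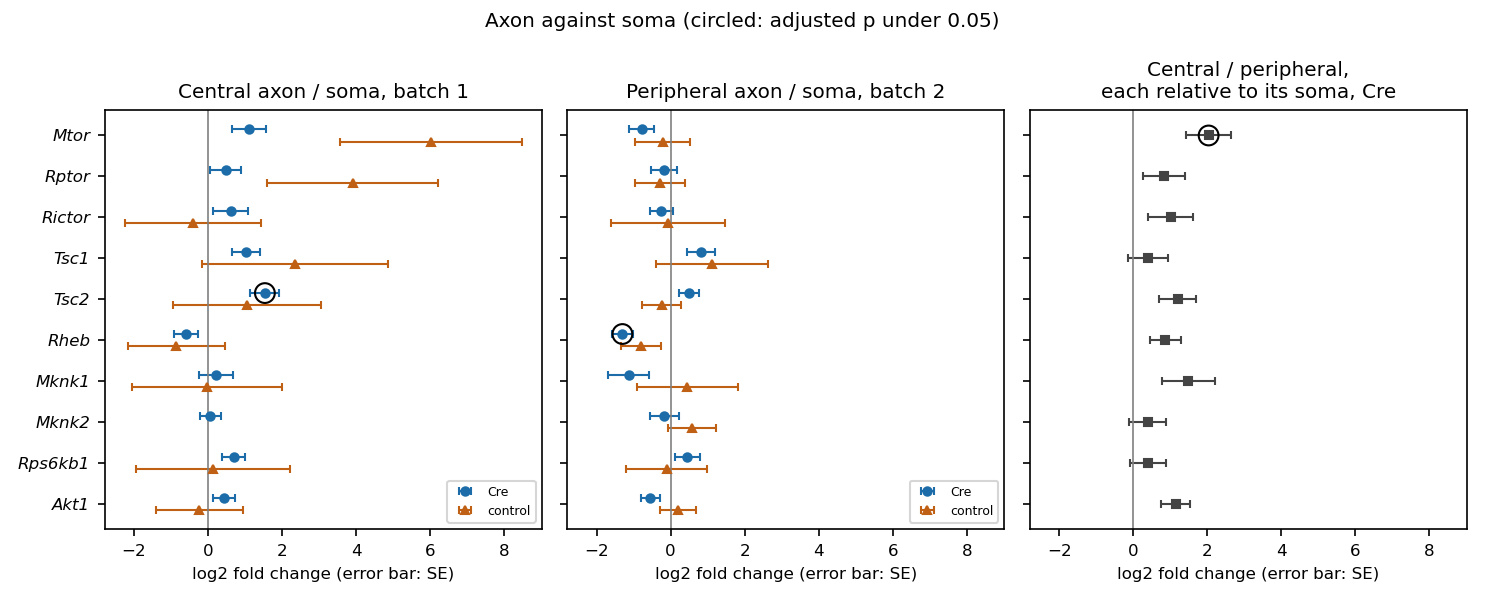
Log2 difference between axon and soma with its SE for the 10 genes: central axon against batch 1 soma, peripheral axon against batch 2 soma (Cre as circles, control as triangles), and the central difference less the peripheral one in Cre libraries (squares). Rings mark an adjusted p under 0.05: Tsc2 at 1.53, Rheb at -1.30 and Mtor at 2.04.

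Counting genes whose CPM did not overlap gave more than the test. In central axons 5 of 10 genes (Tsc1, Tsc2, Mknk2, Rps6kb1 and Akt1) lay above every soma library, against 21.0% of all genes tested. In peripheral axons Tsc1 lay above every soma, against 20.7% of all genes, and Rheb below every soma. Together they were 2 of 10 genes without overlap in either direction, against 36.7% of all genes. By an unadjusted p under 0.05 the counts were 4 of 10 in central axons (Mtor, Tsc1, Tsc2 and Rps6kb1; 29.2% of all genes) and 2 of 10 in peripheral axons (Mtor and Rheb; 42.9%). The scaling of libraries mattered in batch 1. With library totals alone in place of TMM factors, the median log2 difference of all genes in central axons moved from 0.05 to 0.50, and all genes called went from 1250 higher and 740 lower to 2146 higher and 293 lower. Under that scaling 5 of the 10 genes were called higher, namely Mtor, Tsc1, Tsc2, Rps6kb1 and Akt1, with Tsc2 at 2.01 and Rheb at -0.14 on the log2 scale.

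RNA of other cells moved with the same contrasts. In central axon Cre libraries 6 astrocyte markers summed to 296 to 1347 CPM, against 1.99 to 32.0 CPM in batch 1 Cre somas and 1329 to 2347 CPM in central axon controls. Markers of spinal inhibitory and motor neurons summed to 84.3 to 291 CPM in central axon Cre libraries, and 4 of these 5 markers were at 0 in all batch 1 Cre somas. In peripheral axon Cre libraries 10 Schwann cell markers summed to 10650 to 28970 CPM, against 441 to 648 CPM in batch 2 Cre somas and 8851 to 16370 CPM in peripheral axon controls. Fibroblast markers summed to 3816 to 6686 CPM in peripheral axon Cre libraries and 173 to 364 CPM in batch 2 Cre somas. The part of these cells in the Tsc2 and Rheb differences was not tested.

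The same axon-to-soma difference in controls describes RNA recovered without a tag. None of the 10 genes passed the test there. For central axons 0% of the 9202 genes tested passed with edgeR (1138 at an unadjusted p under 0.05 and 394 with DESeq2), and Mknk2 was too low to be tested. Mtor and Rptor were higher in every central axon control than in any batch 1 soma control, against 13.9% of all genes. Mtor was at 106, 103, 9.63 and 95.8 CPM in the central axon controls and at 0, 1.29, 0.324 and 1.25 CPM in the batch 1 soma controls (log2 difference 6.02, SE 2.45; edgeR adjusted p = 0.319). Rptor was at 15.1 to 149 CPM and 0 to 13.9 CPM in these groups. For peripheral axons 0.0802% of 13715 genes passed in controls. Rheb had a negative difference in controls as well (-0.80, SE 0.53; edgeR adjusted p = 0.715), with 289, 111 and 192 CPM in the 3 peripheral axon controls.

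Whether the axon-to-soma difference itself differed between Cre and control libraries was tested as a difference of differences. No gene of the 10 passed. In batch 1 the test called 0% of 15355 genes with edgeR (3133 at an unadjusted p under 0.05, 567 with DESeq2), and in batch 2 it called 0.00636% of 15717. For Tsc2 in batch 1 the Cre difference exceeded that of the controls by 0.70 (SE 2.10; edgeR adjusted p = 0.923), and for Rheb in batch 2 it was lower by 0.66 (difference of differences -0.66, SE 0.57; edgeR adjusted p = 0.78). The value for Mtor in batch 1 was -4.97 (SE 1.84; edgeR adjusted p = 0.141). The differences of Tsc2 and Rheb between axon and soma thus passed within the Cre libraries, and did not pass against the same difference in RNA recovered without the tag.

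Because axon type and batch cannot be told apart directly, each axon was set against its batch's somas before the 2 axons were compared. Mtor differed: its axon-to-soma difference was positive in central axons and negative in peripheral axons. Neither passed on its own (edgeR adjusted p = 0.125 and 0.0972), and axon and soma libraries overlapped in both batches. The difference between these contrasts was 2.04 on the log2 scale (SE 0.60, 4.10-fold; edgeR adjusted p = 0.0312). Mtor was 1 of 10 genes called, where 13.1% of all 16725 genes tested were. This value leaned on central axon library 2, the one at 178 CPM: without it the difference was 1.42 (edgeR adjusted p = 0.0859). The call was also lost without batch 1 soma library 1, 3 or 4, peripheral axon library 4 or batch 2 soma library 5, 7 or 8. In controls the Mtor difference to soma was 6.02 in central axons (edgeR adjusted p = 0.319). In peripheral axon controls it was -0.22 (edgeR adjusted p = 0.963). The axons were not compared with each other in controls.

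All 10 genes had a positive value in this comparison, as did 56.7% of all genes, with a median of 0.94 over the 10 and 0.26 over all genes. Akt1 (1.15, SE 0.38; edgeR adjusted p = 0.0523) and Tsc2 (1.20, SE 0.50; edgeR adjusted p = 0.117) followed Mtor. Together these 3 genes had an unadjusted p under 0.05, where 28.6% of all genes did. The other 7 had values of 0.40 (Rps6kb1) to 1.49 (Mknk1) and edgeR adjusted p-values of 0.181 or more. The batches share no library, but each enters through its own somas, so a value here can come from the somas as well as from the axons.

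Which RNAs the pulldown recovered above background is read from Cre against control libraries. None of the 10 genes passed in any of the 4 compartments. In central axons 0.0141% of 14189 genes did. Rheb came closest there: its Cre libraries (321 to 427 CPM) all lay above its controls, which held 164, 232, 127 and 242 CPM. The log2 difference was 1.03 (SE 0.33, 2.04-fold), with an unadjusted p of 0.0091 and an edgeR adjusted p of 0.518, and 4.82% of all genes had an unadjusted p under 0.05. Rheb was the gene of the 10 with such a p.

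Mknk2 also lay higher in every central axon Cre library (50.6 to 70.6 CPM) than in its controls, at 44.6, 0, 0 and 7.98 CPM. Its log2 difference was 2.24 with an SE of 1.66 (edgeR adjusted p = 0.9997). Rheb and Mknk2 were 2 of 10 genes higher without overlap, against 6.82% of all genes. Akt1 was lower in every Cre library (383 to 429 CPM) than in any control (437 to 613 CPM), against 1.29% of all genes lower in this way, with a log2 difference of -0.24 (SE 0.26). The remaining 7 genes overlapped between Cre and control central axons. For Mtor the controls, apart from the library at 9.63 CPM, lay at 95.8 to 106 CPM, above 3 of 4 Cre libraries.

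In peripheral axons 0% of 13970 genes passed with edgeR (514 at an unadjusted p under 0.05, 27 with DESeq2), and all 10 genes overlapped between Cre and control. Rheb, for example, was at 163 to 251 CPM with Cre and 111 to 289 CPM without (log2 difference 0.08, SE 0.38). The largest differences were -1.10 for Mknk1 (SE 1.12) and -0.62 for Mtor (SE 0.64). In batch 1 somas 4.42% of 11667 genes passed, none of them among the 10. Mtor (18.7 to 43.1 CPM with Cre, at most 1.29 CPM in controls) and Rptor (22.1 to 29.5 and at most 13.9 CPM) were higher in every Cre library, against 28.0% of all genes. Their log2 differences were 3.45 (SE 1.97; edgeR adjusted p = 0.401) and 1.57 (SE 1.89; edgeR adjusted p = 0.686). Over the alternative fits these ranged from 3.19 to 5.42 for Mtor, which passed in 2 of 14 fits, and from 1.31 to 4.71 for Rptor. The TMM factor, which scales each library, was 0.0547 for control 3 in this comparison and 1.30 to 1.78 for the other 7 libraries.

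The batch 1 soma controls were dominated by single libraries for several genes. Rictor was at 337, 0, 1.73 and 35.8 CPM in controls 1, a, 3 and b. Tsc2 was at 0.613, 168, 0.324 and 0 CPM, Mknk2 at 0.123, 217, 0.539 and 0.125 CPM, and Rps6kb1 at 266, 0, 1.19 and 0 CPM. Control a held the high value for Tsc2 and Mknk2, and control 1 for Rictor and Rps6kb1. In batch 2 somas 0% of 15280 genes passed with edgeR (2503 at an unadjusted p under 0.05, 1162 with DESeq2). Tsc2 was lower in every Cre soma (41.9 to 54.2 CPM) than in its controls (65.3 to 84.8 CPM), against 7.58% of all genes, with a log2 difference of -0.37 (SE 0.28; edgeR adjusted p = 0.556). Mtor did not differ there beyond its spread (0.01, SE 0.46).

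**Figure D4:**
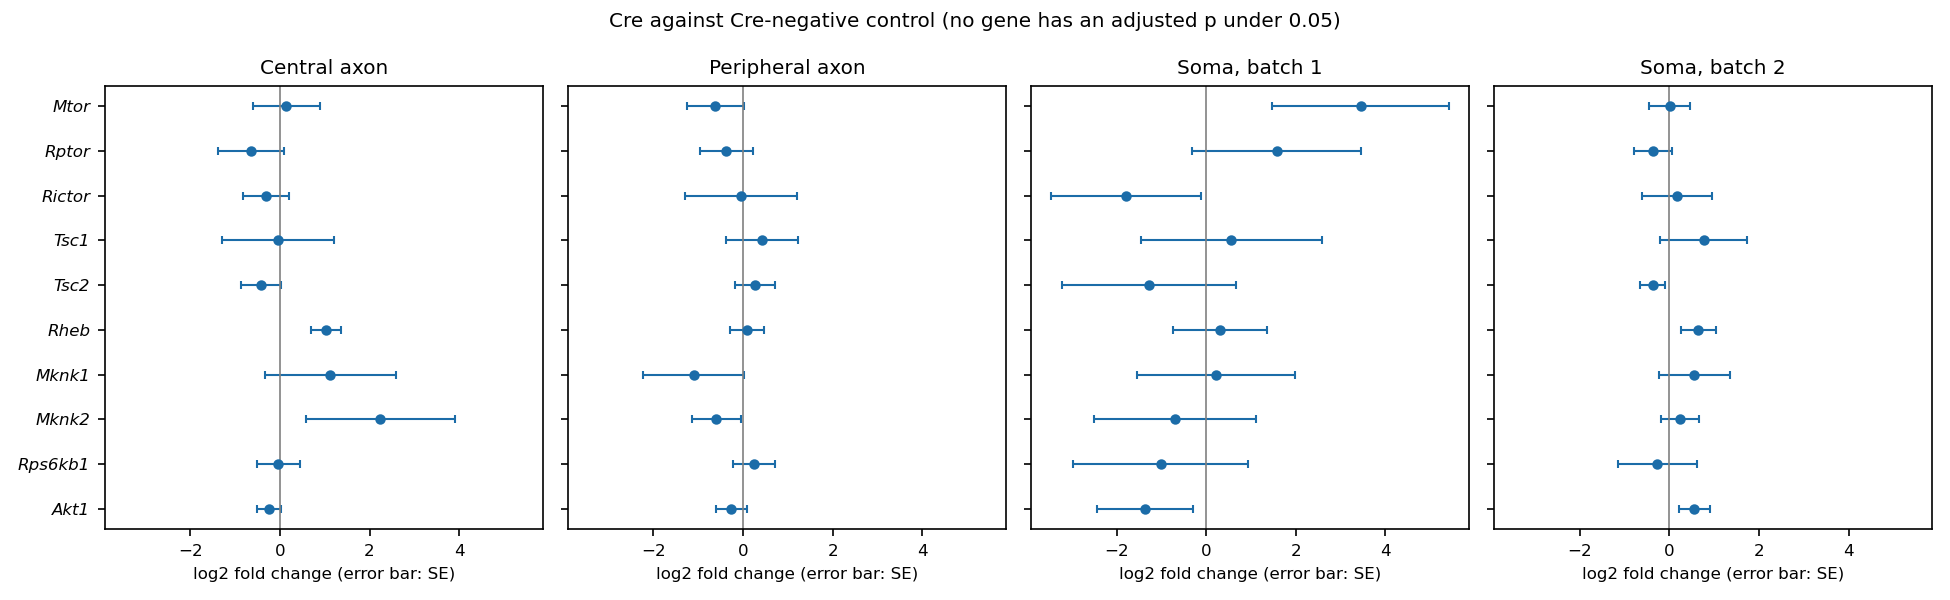
Log2 difference between Cre and Cre-negative control libraries with its SE for the 10 genes in each compartment. No point passed the test, and the error bars are widest in batch 1 somas, for example 1.97 for Mtor.

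Ordering the 8 groups by median shows how far the levels separated. Mtor, Rptor, Rictor, Tsc1 and Tsc2 had their highest median in central axon controls, at 99.2, 76.4, 84.6, 54.5 and 123 CPM. Rheb was highest in batch 1 Cre somas (462 CPM) and lowest in peripheral axon Cre libraries (183 CPM). Mknk1 was highest in central axon Cre libraries (22.8 CPM) and Mknk2 in peripheral axon controls (71.5 CPM). Most neighbours in these orders overlapped. The exceptions were the lowest group of Mtor and of Rptor (batch 1 soma controls), peripheral axon Cre above batch 2 Cre somas for Tsc1, and batch 2 above batch 1 Cre somas for Tsc2 and Rps6kb1. For Akt1, central axon controls, central axon Cre libraries and batch 2 Cre somas followed each other without overlap.

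Ratios of paired genes within a library need no scaling. They were compared between Cre axons and somas by exact two-sided permutation tests, whose smallest possible p with 4 against 4 is 0.0286, adjusted over 6 tests. None passed, and 1 ratio alone at that smallest p could not have passed after adjustment. The log2 ratio of Mknk2 to Mknk1 was 2.79 ± 1.11 in peripheral axons and 1.64 ± 0.74 in batch 2 somas (SD, n = 4 each; exact permutation p = 0.143, adjusted p = 0.729). In central axons and batch 1 somas it was 1.70 ± 0.76 and 1.73 ± 0.25 (exact permutation p = 1). The ratio of Rptor to Rictor, the defining subunits of mTORC1 and mTORC2, was -0.64 ± 1.03 in central axons and 0.00 ± 1.31 in batch 1 somas (exact permutation p = 0.486). The ratio of Tsc2 to Tsc1 was 0.93 ± 0.45 and 0.22 ± 1.22 in the same groups (exact permutation p = 0.343). In batch 2 the Rptor to Rictor and Tsc2 to Tsc1 ratios differed between axon and soma by -0.01 and -0.29.

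A list of 84 other genes of the pathway was followed in the same fits. In central axons 5 were higher and 5 lower than in somas, of 82 tested, where 8.63% of all genes were called higher and 5.11% lower. In peripheral axons 11 were higher and 11 lower, of 82, where 18.7% of all genes were called higher and 12.5% lower. In both axons the share of the list called higher was below that of all genes, and the share called lower was close to it. Higher and lower calls summed were a smaller share of the list than of all genes in both axons. The median log2 difference over the list was 0.09 in central and -0.39 in peripheral axons. In the nutrient-sensing list (GATOR, KICSTOR, folliculin and amino acid sensors), 2 of 19 genes rose in central axons and 5 of 19 in peripheral axons, and none fell. No direction of a group of pathway genes was tested, and each count stands against the shares of all genes just given. In central axons these were the folliculin gene Flcn (17.2 to 63.1 against 5.59 to 16.4 CPM; log2 difference 1.57, SE 0.46; edgeR adjusted p = 0.0386) and the arginine sensor Castor1. In peripheral axons they were Sesn3, Sesn1, Fnip1, Fnip2 and Seh1l. Castor1 was at 3.77 to 13.9 CPM in central axons and at 0 to 1.75 CPM in batch 1 Cre somas. Of these 4 somas, 2 held 3 or fewer Castor1 counts. Castor1 thus entered this test through the central axon libraries alone. The sestrin gene Sesn3, whose product restrains mTORC1, was at 57.2 to 110 CPM in peripheral axons and 5.86 to 11.4 CPM in batch 2 somas (3.22, SE 0.33; edgeR adjusted p = 6.3e-05).

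Of 9 Rag GTPase and Ragulator genes, Lamtor2 (-1.50, SE 0.31; edgeR adjusted p = 0.00916) and Lamtor4 (-1.55, SE 0.33; edgeR adjusted p = 0.00991) fell in central axons, where the Rag GTPase Rragb rose (1.11, SE 0.33; edgeR adjusted p = 0.04). In peripheral axons Rraga and Rragd fell, the latter from 115 to 159 CPM in somas to 22.0 to 82.1 CPM (-1.68, SE 0.37; edgeR adjusted p = 0.00564). Of 8 other mTOR complex subunits, Deptor, an inhibitory subunit, fell in central axons from 97.9 to 136 CPM in somas to 45.7 to 70.6 CPM (-1.48, SE 0.29; edgeR adjusted p = 0.00627), and Prr5 of mTORC2 fell in peripheral axons. Tbc1d7, the remaining subunit of the TSC complex, fell in peripheral axons (-1.80, SE 0.33; edgeR adjusted p = 0.00203), where Tsc1 and Tsc2 had positive differences.

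Upstream, 0 of 15 PI3K, AKT and AMPK genes passed in central axons with edgeR, with 3 at an unadjusted p under 0.05. Of 16 in peripheral axons, 2 rose and 3 fell, a share close to the 31.2% of all genes called. The kinase gene Sgk1, an mTORC2 target, rose from 1.48 to 3.37 CPM in somas to 24.6 to 96.3 CPM (4.52, SE 0.50; edgeR adjusted p = 8.85e-05), together with Irs1. Pik3cd, Prkaa2 and Irs2 fell. Of 12 ERK and p38 pathway genes that feed MNK, 4 fell in peripheral axons (Map2k1, Map2k2, Mapk3 and Mapk11) and 1 in central axons (Mapk3), and none rose, against 12.5% and 5.11% of all genes called lower. Map2k1, encoding the ERK-activating kinase MEK1, went from 171 to 213 CPM in somas to 27.0 to 90.5 CPM in peripheral axons (-1.93, SE 0.36; edgeR adjusted p = 0.00235).

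The list of effectors at the cap and ribosome also held Ulk1, Tfeb and Grb10, which do not act there. Among its 17 genes tested, 4 rose in peripheral axons, against 18.7% of all genes, and none fell. Grb10, an adaptor that mTORC1 phosphorylates, was at 134 to 360 CPM in peripheral axons and 5.89 to 13.4 CPM in batch 2 somas (4.47, SE 0.38; edgeR adjusted p = 2.51e-05). Pdcd4, an inhibitor of the helicase eIF4A (2.55, SE 0.38; edgeR adjusted p = 0.000574), and the 4E-BP genes Eif4ebp1 and Eif4ebp2 rose with it. In central axons Rps6ka1, a ribosomal S6 kinase downstream of ERK (1.84, SE 0.54; edgeR adjusted p = 0.04), and Ulk1 rose and Rps6ka3 fell. Controls held several of these RNAs at similar levels: Grb10 was at 230 to 783 CPM in peripheral axon controls, Sesn3 at 82.1 to 130 CPM and Sgk1 at 34.99 to 343 CPM. Pdcd4 went the other way, at 66.5 to 175.7 CPM in peripheral axon Cre libraries and 39.8 to 57.65 CPM in controls. Of all genes, 3.58% were higher with Cre without overlap there. The Schwann cell and fibroblast marker sums given above rose in the same comparison, and their part was not tested.

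These calls differed in how far they rested on single libraries. In central axons Deptor, Lamtor2 and Lamtor4 were called in all 8 fits that left out 1 library, while Castor1 and Flcn were called in 3 of 8, Ulk1 in 2 of 8 and Rragb and Rps6ka1 in 1 of 8 each. None of the central axon calls held when the controls were fitted together with the Cre libraries, the lowest edgeR adjusted p being 0.956 for Mapk3. That fit includes the widely scattered batch 1 soma controls. Over all genes, the alternatives called as few as 15 in this comparison, against 1990 with only the groups compared. The part of these controls in the lost calls was not tested. In peripheral axons Grb10, Sesn3, Sgk1, Pdcd4, Tbc1d7, Rragd and Map2k1 were called in all 8 fits, and Rraga and Fnip2 in 3 of 8, Eif4ebp1, Seh1l, Prkaa2 and Mapk3 in 2 of 8.

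**Figure D5:**
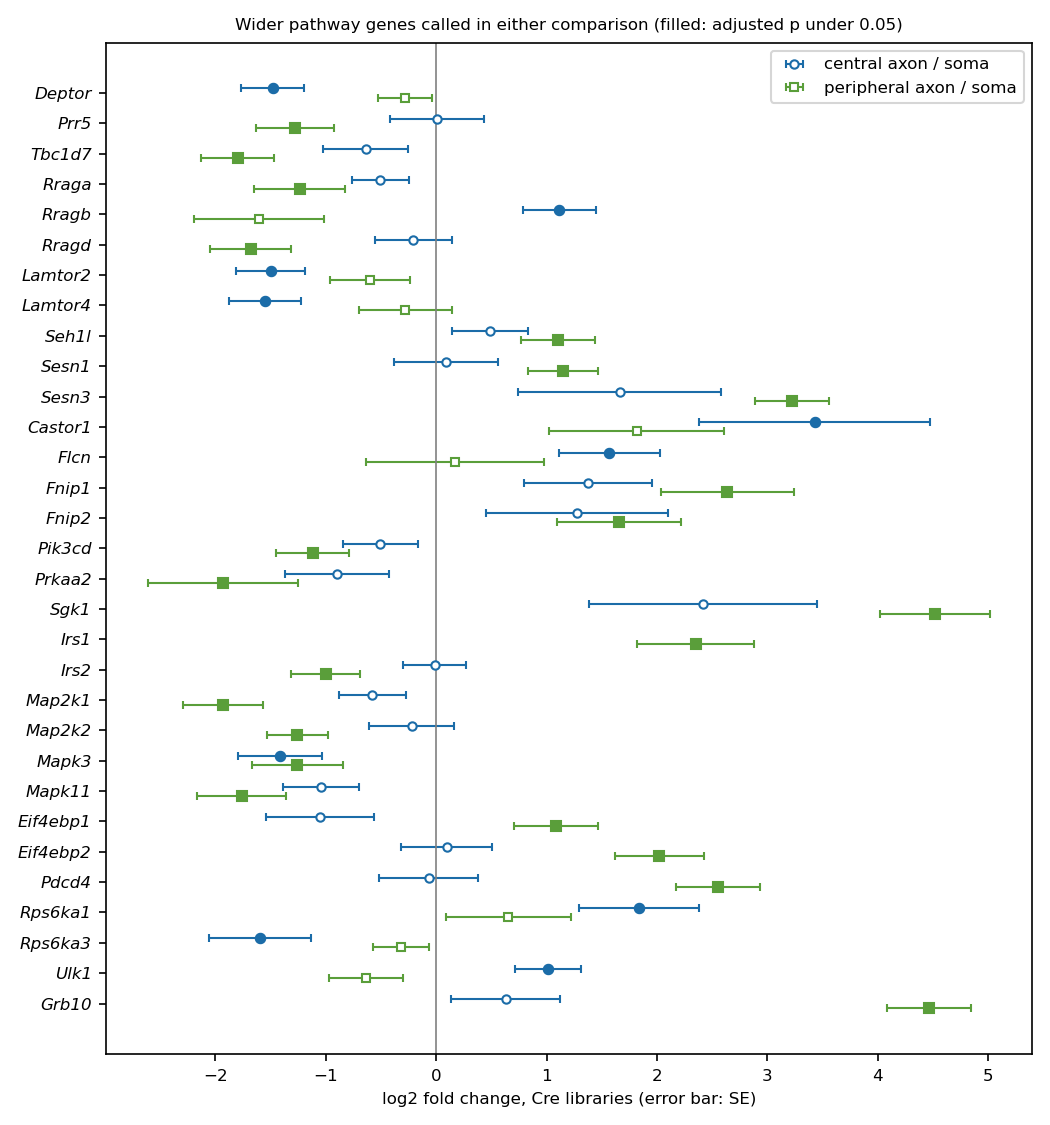
Log2 difference between axon and soma with its SE in Cre libraries, for the other pathway genes that passed the test in either axon (central as circles, peripheral as squares, filled where the adjusted p is under 0.05). Grb10 (4.47) and Sgk1 (4.52) lie farthest to the right in peripheral axons, and Deptor, Lamtor2 and Lamtor4 (near -1.5) are among the filled circles left of 0.

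Relative to their somas, 5 of 83 pathway genes tested stood higher in central than in peripheral axons (Telo2, Rragb, Rragd, Map2k1 and Ulk1) and 3 lower (Grb10, Pdcd4 and Eif4ebp1), where 7.20% of all genes were called higher and 5.88% lower. Telo2, which helps assemble mTOR kinase complexes, had a value of 2.73 (SE 0.75; edgeR adjusted p = 0.0219) and Rragb of 2.87 (SE 0.70; edgeR adjusted p = 0.0125). Ulk1, a kinase that starts autophagy and that mTORC1 inhibits, had 1.82 (SE 0.45; edgeR adjusted p = 0.0134). Grb10 had -3.67 (SE 0.64; edgeR adjusted p = 0.00147). Between Cre and control libraries 1 pathway gene passed in any compartment, Map2k6 in batch 1 somas (4.42% of all genes passed there), which encodes a p38-activating kinase. It was at 1.99 to 4.45 CPM in the Cre somas and at 0 counts in all 4 controls, where 3 counts stood for 0.324 to 0.376 CPM. It thus entered this test through the Cre somas alone. In central axons Map2k6 was also higher with Cre (4.34 to 9.76 against 0 to 3.23 CPM). Cre and control overlapped in batch 2 somas (3.72 to 8.55 against 0.555 to 14.6 CPM) and peripheral axons (0.486 to 6.84 against 0.982 to 12.6 CPM).

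As a description, genes were ranked by how closely their scaled log2 CPM followed that of Mtor, Mknk1 and Mknk2 over the 31 libraries, which differ in depth and fall in 2 batches, among 13057 genes. The closest to Mtor were Men1 (Pearson r = 0.92), Clip1 (0.90) and Osbpl6 (0.90). Rptor ranked 23 for Mtor (r = 0.86), while Rictor followed it little (r = 0.02). The 31 libraries include the batch 1 soma controls, with Mtor at 0 to 1.29 CPM and Rptor at 0 to 13.9 CPM. The weight of these controls in the correlations was not tested. The closest to Mknk1 were Smad1 (0.88), Chga (0.86) and Akirin1 (0.86), and its paralogue Mknk2 ranked 403 (0.66). The closest to Mknk2 were Ets1 (0.96), Crlf3 (0.94) and Prkci (0.94).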

How the data were processed

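Unnormalised counts of reads per gene were deposited by the authors in 2 tables, 1 for each batch, for 31 libraries made with the SMART-Seq v4 kit from under 100 pg (axon) or under 1 ng (soma) of RNA, per the labels' protocols. STAR 2.7.2b and mm10 are named in the submitters' processing notes; the counting program and its handling of strand are not given in the sources used here. All 55536 identifiers matched GENCODE M21 (GRCm38), which gave symbols, coordinates and exon lengths. A pair of batch 1 soma control columns shares 1 name, and they are called a and b here. Counts were tested with edgeR 4.0.16 in R 4.3.3 (filterByExpr with a minimum count of 10 and minimum total of 15, TMM, quasi-likelihood test), fitting only the groups compared and adjusting p over all genes tested. The SE is the log2 difference divided by the square root of F. Printed CPM use library totals without TMM. The fitting code was tested on simulated data. The 10 genes, the lists and the rule for named genes were chosen with earlier results of these data known; all 10 genes and, per comparison, up to 3 pathway genes per direction by smallest adjusted p were named, and all called genes where a list's count was 5 or fewer. DESeq2 1.42.0, other scalings, no low-count filter, all groups in one fit, a replicate block and leaving out each library were the alternatives. Some pathway genes are not reported here. With blastn 2.17.0, 4 of the 10 genes shared stretches of at least 100 bases at 95% identity or more with another gene (Tsc2 with 86 genes, Mknk1, Rheb and Rps6kb1 with 1 each), so their counts are less certain.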

Additional observations from a re-analysis of the deposited data

Results flagged for a closer look

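In each group of 4 libraries, every gene was checked for 1 library standing apart from the others by Dixon's criterion, and 13 of 70 gene and group pairs had one, where chance gives about 1 in 20. Among batch 1 soma controls these were Rictor in control 1 (337 CPM), Rps6kb1 in control 1 (266 CPM), Tsc2 in control a (168 CPM), Mknk2 in control a (217 CPM), Tsc1 in control b (31.6 CPM) and Rptor in control b (13.9 CPM), each the highest of its group. In batch 2 soma controls Mtor was high in control 6 (91.0 CPM) and Mknk1 in control 5 (30.5 CPM), and in central axon controls Mtor was low in control 3 (9.63 CPM). In Cre libraries Rictor was high in batch 2 soma 5 (59.3 CPM), Rheb was low in batch 1 soma 4 (251 CPM), Rps6kb1 was low in batch 1 soma 3 (24.2 CPM) and Mknk2 was low in peripheral axon 3 (18.3 CPM). In addition, the axon-to-soma difference of Mtor differed between central and peripheral axons by a test of that difference (2.04 on the log2 scale).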

How the results depend on the processing

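Of 1082 single-gene values recomputed with 1 library left out, 1066 kept their side of the threshold, 12 lost the call and 4 gained one. None of the called values changed sign, while 75 values without a call did. Of 583 values under other settings 567 kept their side, 1 lost the call and 15 gained one (29 without a call changed sign). The count of the 10 genes called changed as follows. In central axons against somas it was 5 with library size alone, 2 with DESeq2 (Tsc1 and Tsc2), 0 when every batch 1 group was fitted together, and 0 to 1 with 1 library left out. In peripheral axons against somas it was 4 with DESeq2 (Mtor, Rheb, Mknk1 and Akt1) and 1 to 2 with 1 library left out (Mtor joined without peripheral axon library 1). In central axon controls against soma controls it was 1 with DESeq2 (Mtor) and 2 when they were fitted together (Mtor and Rptor). In batch 1 somas, Cre against control, it was 1 with DESeq2 and 1 in the joint fit (both Mtor). With 1 library left out it was 0 to 1 there (Akt1, lower with Cre, without control 3). In batch 2 somas it was 0 to 1 with 1 library left out (Akt1, higher with Cre, without control 5). For central against peripheral axons it was 2 with library size alone and 2 with DESeq2 (Mtor and Akt1), and 0 to 1 with 1 library left out. The causes of these changes were not tested.

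Over all genes, the number called moved from 1990 to between 15 and 3144 over the alternatives for central axons against somas, from 4818 to between 1404 and 6158 for peripheral axons, from 516 to between 0 and 3094 for batch 1 somas and from 2187 to between 1394 and 3290 for central against peripheral axons. For the 7 other comparisons, with 0 to 11 genes called, the highest counts were 217 (central axon Cre against control), 27 (peripheral axon), 1826 (batch 2 soma), 3855 and 608 (central and peripheral axon against soma in controls), 1111 and 352 (the difference of differences in batches 1 and 2). Under a replicate block, Tsc2 was again called in central axons, 2226 genes were called there and no member call changed. Libraries with the same number correlated at 0.20, -0.01, 0.09 and 0.18 (mean of -0.04 between different numbers); not every pair was above 0.1, so the numbers were not taken as pairing them. No paired analysis was possible because the groups share no replicate numbers for peripheral axons against batch 2 somas. Depth limits the precision of the lowest values, such as Mknk1 with 11 and 18 counts in peripheral axon Cre libraries 1 and 3, and of controls with 0 counts.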
